A study of Mus musculus with 8 samples.

Results

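The transcripts of 10 BCL2 family genes were examined in sorted mouse myeloid progenitors infected with a Trim27 virus and in the same kind of cells infected with a control virus. The 10 genes were taken by name, as pro-survival and pro-death members of the family, from a table of raw read counts for 33435 named genes. All 10 were listed in the table, and all 10 had enough counts to be tested, among 11040 tested genes. Bcl2l11 and Pmaip1 had enough counts with the Trim27 virus only, so a rise was the only change that could be tested. The pro-survival members were Mcl1, Bcl2 and Bcl2l1. The pro-death members were the effectors Bax and Bak1 and the BH3-only genes Bcl2l11, Bid, Bad, Bbc3 and Pmaip1.

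Both groups started from stem and progenitor cells of C57BL/6J fetal livers at stage E14.5. These cells received a virus with Trim27, the gene of a RING-finger E3 ubiquitin ligase, or a GFP control virus that the series' design calls an empty vector, before myeloid progenitors were isolated by sorting. The series holds 4 Trim27 libraries and 4 GFP libraries of polyadenylated RNA. The promoter of the virus and the number of animals or cultures behind each library are not stated. The p-values therefore rest on the spread among libraries alone, and part or all of that spread may be technical.

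BCL2 family proteins decide whether the outer membrane of the mitochondrion stays closed. The pro-survival proteins hold the effectors BAX and BAK in check, while BH3-only proteins respond to stress by binding the pro-survival proteins or by switching the effectors on. Once active, BAX and BAK form pores that release cytochrome c, and caspases then dismantle the cell. In mouse blood formation MCL1 is needed for the survival of stem and progenitor cells, BCL-XL (the product of Bcl2l1) for that of late erythroid cells and platelets, and BIM (the product of Bcl2l11) limits the number of white blood cells.

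The members share a short helix, BH3, that BH3-only proteins insert into a groove of their partners. The stretches that encode it are shown because they are the sequence feature that ties the family together. The longest coding sequence among each gene's principal transcripts in GENCODE M21 was searched for the codons of a leucine, any 3 residues, a glycine, alanine or serine, an aspartate, and then an aspartate, glutamate, glycine or lysine. Each of the 9 genes searched held 1 match. Pmaip1 was not searched. Each stretch below is 30 bases of uninterrupted coding sequence, read 5′ to 3′ on the gene's strand, and the capitals mark the codons of the shared leucine and aspartate.
Mcl1: accCTGcggcgcgtgggcGACggcgtgcag
Bcl2: accCTCcgccgggctgggGATgacttctct
Bcl2l1: gcgCTGagagaggcaggcGATgagtttgaa
Bax: tgtCTCcggcgaattggaGATgaactggac
Bak1: cagCTTgctctcatcggaGATgatattaac
Bcl2l11: gagCTGcggcggatcggaGACgagttcaac
Bid: catCTCgcccaaataggcGATgagatggac
Bad: gagCTCcgaaggatgagcGATgagtttgag
Bbc3: cagCTGcggcggatggcgGACgacctcaac
In GRCm38 the stretches of the pro-survival genes lie at chr3:95659433-95659462 (plus strand), chr1:106712575-106712604 (minus strand) and chr2:152829697-152829726 (minus strand). Those of the effectors lie at chr7:45465997-45466026 and chr17:27022531-27022560, both on the minus strand. The stretches of the BH3-only genes lie at chr2:128147147-128147176 (Bcl2l11, plus strand), chr6:120897289-120897318 (Bid, minus strand), chr19:6950789-6950818 (Bad, plus strand) and chr7:16313770-16313799 (Bbc3, plus strand). Coordinates of whole genes are of the same build and annotation.

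Total counts were 10551137 to 16366571 in the Trim27 libraries and 9257889 to 10747794 in the GFP libraries. Trim27 itself was at 292.7 ± 18.4 CPM (counts-per-million, relative to the scaled library size) in the Trim27 group and 180.5 ± 8.52 CPM in the GFP group (SD, n = 4 each). Its log2 fold change was 0.70 (SE 0.05, edgeR adjusted p = 7.4e-13), but -0.16 once each library's trend with transcript length was removed. Relative to the median of all tested genes it was 0.56 before that removal and 0.21 after it. All 9 myeloid progenitor markers looked up were detected, 2 of which rose and 6 fell, with Mpo, the myeloperoxidase gene, at 439.4 to 507.1 CPM in the Trim27 libraries and 526.6 to 589.4 CPM in the GFP libraries. Markers of other cells moved too. Summed B cell markers ranged from 40.9 to 55.2 CPM in the Trim27 libraries and from 66.2 to 159.4 CPM in the GFP libraries, and 6 of 8 tested fell. Erythroid markers summed to between 1043 and 1203 CPM in the Trim27 libraries and between 1673 and 1732 CPM in the GFP libraries, with 3 of 10 up and 7 down. Of 12 hepatocyte markers, 8 were at 0 in every library, Alb and Hnf4a among them, and the list summed to 15.1 to 17.6 CPM with Trim27 and 1.2 to 1.7 CPM with GFP. Megakaryocyte markers summed to 828.1 to 864.0 CPM with Trim27 and 1059 to 1142 CPM with GFP, and endothelial and stromal markers to 33.4 to 34.7 CPM with Trim27 and 74.7 to 83.6 CPM with GFP. T and NK cell markers summed to 113.0 to 117.3 CPM with Trim27 and 46.6 to 57.3 CPM with GFP, and tissue macrophage markers, 8 of 10 of which were at 0, to 9.69 to 11.9 CPM with Trim27 and 0 to 0.957 CPM with GFP. The part of these cells in the results below was not tested, and in bulk RNA fewer cells of a type and less RNA per cell cannot be told apart.

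All 10 members passed the threshold of 0.05 on the adjusted p, 8 as higher and 2 as lower in the Trim27 group. Of the 8, Bcl2l11 and Pmaip1 passed the count filter only through the Trim27 libraries, so their calls could only be rises. Of all 11040 genes tested, 85.5% passed, 47.5% as higher and 38.0% as lower, so 10 calls among 10 genes is close to the background. After removal of the length trend 6 members rose and 4 fell, Mcl1 and Bcl2 being the added falls. None of the members other than Mcl1 and Bcl2 crossed 0 under any alternative, as the plot of fold changes under other processing choices shows. Across the members the median log2 fold change was 0.90, against 0.14 over all genes tested. The median of the members includes Bcl2l11 and Pmaip1, which the filter allowed only as rises, so it is a description only. Setting Pmaip1 to its lower bound could not move the median, because Pmaip1 stayed the highest member. The groups did not overlap for 8 members, all but Mcl1 and Bcl2, and for 80.7% of all tested genes.

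**Figure D1:**
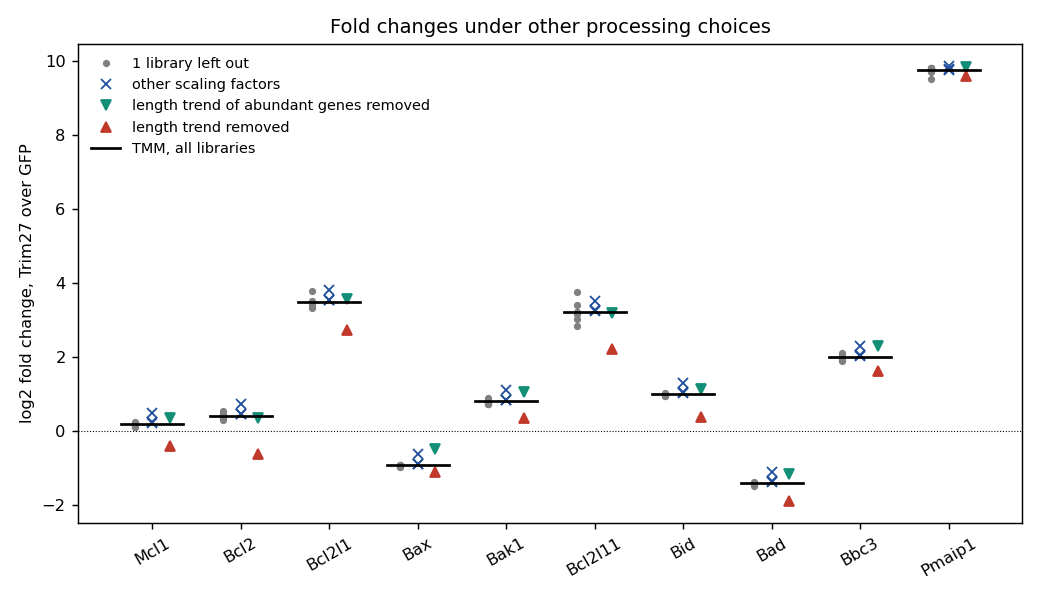
Log2 fold change (Trim27 over GFP) of each member with TMM scaling and all libraries (black line), with 1 library left out (grey), with other scaling factors (blue crosses) and with length trends removed (triangles). Mcl1 and Bcl2 fall below 0 when the length trend is removed, and no other member crosses 0. The values for Pmaip1 depend on a prior count, because its GFP counts are 0.

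With TMM scaling the pro-survival members were all higher in the Trim27 group, but by very different amounts. Bcl2l2, a pro-survival gene outside the members, was lower (log2 fold change -2.48). Bcl2l1 (chr2:152780668-152831728), which encodes BCL-XL, had 41.0, 41.0, 42.5 and 41.7 CPM in Trim27 replicates 1 to 4, against 5.71, 3.83, 2.15 and 2.98 CPM in GFP replicates 1 to 4. Every Trim27 library lay far above every GFP library, and the Trim27 libraries were nearly equal. The means were 41.6 ± 0.716 CPM in the Trim27 group and 3.67 ± 1.52 CPM in the GFP group (SD, n = 4 each), an 11.3-fold difference (log2 fold change 3.50, SE 0.15, edgeR adjusted p = 2.4e-18). After removal of the length trend the log2 fold change was 2.74. Of the 2404 genes of similar abundance (2 to 4 log2 CPM), 93.4% had a lower log2 fold change. The coefficient of variation of Bcl2l1 was 1.72% in the Trim27 group and 41.6% in the GFP group. Counting error alone would give 3.90% with Trim27 and 17.3% with GFP if each count were 1 molecule, and 5.52% with Trim27 and 24.5% with GFP if 2 counts were 1 molecule.

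Mcl1 (chr3:95658788-95663176), whose short-lived protein protects progenitors, was nearly level. It stood at 69.6, 60.6, 58.7 and 65.2 CPM in the Trim27 libraries, against 55.9, 62.1, 47.0 and 56.7 CPM in the GFP libraries. GFP replicate 2 lay above Trim27 replicates 2 and 3, so the groups overlapped. The log2 fold change was 0.19 (SE 0.08, edgeR adjusted p = 0.026), and 51.5% of all tested genes had a lower one. Relative to the median gene the difference was 0.06 with TMM scaling. After removal of the length trend it was -0.04, and the value itself was -0.41 (edgeR, adjusted p of 2.7e-05). The edgeR adjusted p was 0.16 without Trim27 replicate 1, 0.051 without Trim27 replicate 2, 0.112 without Trim27 replicate 4 and 0.163 without GFP replicate 3.

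Bcl2 (chr1:106538178-106714274), the founding member of the family, had 17.7, 17.1, 17.1 and 13.2 CPM in the Trim27 libraries, against 11.5, 13.1, 15.5 and 8.95 CPM in the GFP libraries. Trim27 replicate 4 was the low one of its group and lay below GFP replicate 3. The log2 fold change was 0.42 (SE 0.15, edgeR adjusted p = 0.010), and 52.0% of genes of similar abundance had a lower one. It was -0.61 (edgeR adjusted p = 0.000295) after removal of the length trend, and 0.29 with an edgeR adjusted p of 0.0672 without GFP replicate 4. Relative to the median gene the difference was 0.28 with TMM scaling and -0.24 after removal of the length trend. An antisense gene, D630008O14Rik, shares 558 exon bases with Bcl2 and had 0 counts in both groups.

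The effectors went in opposite directions. Bax (chr7:45461697-45466898), the most abundant member, had 314.3, 346.1, 344.2 and 311.8 CPM in the Trim27 libraries, against 640.6, 603.0, 647.2 and 607.8 CPM in the GFP libraries. The groups stood well apart, and within each the highest library was at most 1.11 times the lowest. The log2 fold change was -0.92 (SE 0.05, edgeR adjusted p = 1.2e-16). In Trim27 libraries Bax was thus at 0.527 of its GFP level. The value was -0.48 when the length trend seen in abundant genes was taken out. Genes as abundant as Bax mostly fell. Of 526 genes at 8 to 10 log2 CPM, 123 rose and 336 fell, and the median log2 fold change was -0.32. The annotated gene Gm45808 shares 192 exon bases with Bax on the same strand.

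Bak1 (chr17:27019810-27029009) had 19.2, 20.9, 19.5 and 18.9 CPM in the Trim27 libraries, against 12, 10, 13.3 and 9.97 CPM in the GFP libraries. No library of either group reached into the other. The log2 fold change was 0.80 (SE 0.13, edgeR adjusted p = 1.3e-06), and 0.34 after removal of the length trend (edgeR adjusted p = 0.0138). Relative to the median gene the difference was 0.66 with TMM scaling and 0.71 after that removal. Ggnbp1 overlaps Bak1 on the opposite strand by 614 exon bases, but held only 47 counts in the Trim27 group and 4 in the GFP group.

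**Figure D2:**
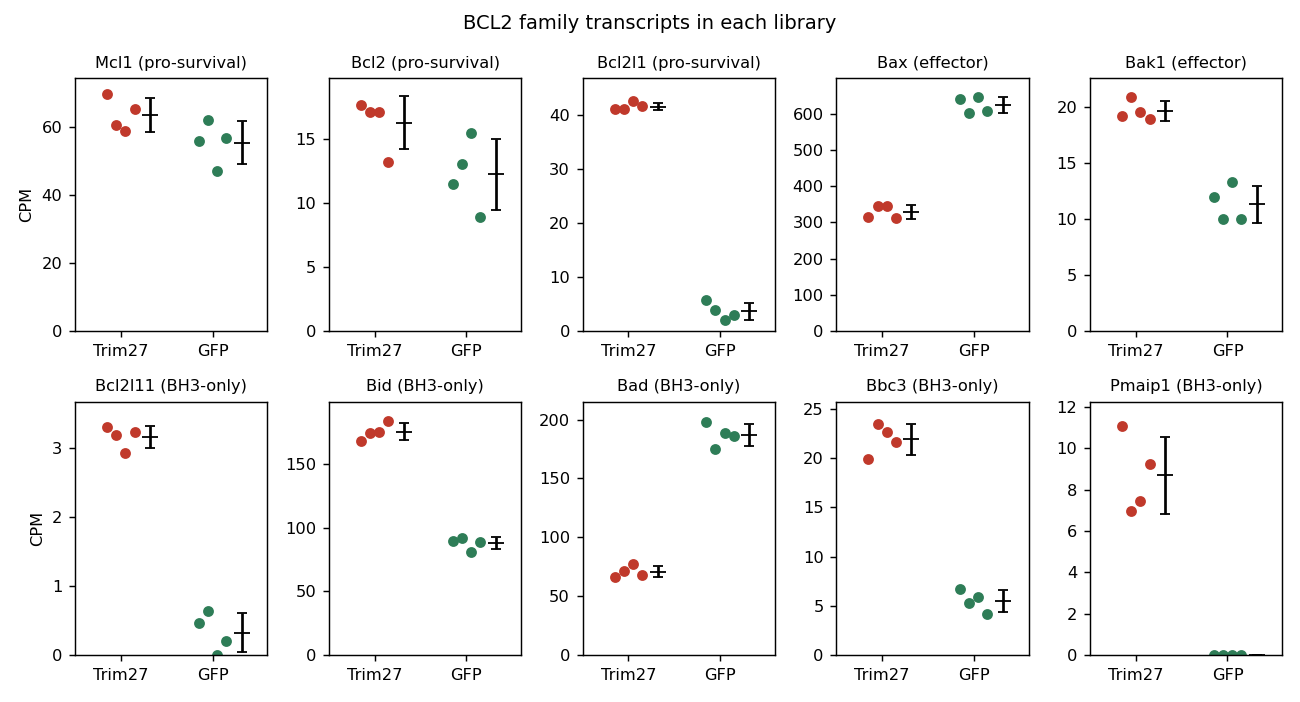
CPM of each member in each library, on linear axes that start at 0 and differ between panels. Points are replicates 1 to 4 from left to right within a group, and the bar is the mean ± SD. Bcl2l1, Bcl2l11 and Pmaip1 are near or at 0 in the GFP group, Bax and Bad are the genes lower with Trim27, and the groups overlap for Mcl1 and Bcl2.

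Among the BH3-only genes, 4 rose and 1 fell, where 47.5% of all tested genes rose and 38.0% fell. Of the 4, Bcl2l11 and Pmaip1 could only be called as rises, because of the count filter. Pmaip1, which encodes NOXA, a protein that binds MCL1, had 184, 116, 135 and 109 counts in Trim27 replicates 1 to 4, against 0 counts in each GFP library. That is 11.1, 6.98, 7.46 and 9.25 CPM with Trim27. Against a floor of 3 counts over the 4 GFP libraries (0.0828 CPM), Pmaip1 was at least 104.1-fold higher (edgeR adjusted p = 6e-14). That p adds no support, because Pmaip1 passed the count filter only through the Trim27 libraries. Most small counts in this table are even numbers, and with 2 counts taken as 1 molecule the floor is 6 counts and Pmaip1 at least 52.1-fold higher. Both bounds cover counting error only.

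Bbc3 (chr7:16308393-16318205), which encodes PUMA, had 19.9, 23.5, 22.7 and 21.6 CPM in the Trim27 libraries, against 6.74, 5.32, 5.86 and 4.11 CPM in the GFP libraries. The lowest Trim27 library was well above the highest GFP library. It was 4.0-fold higher (log2 fold change 2.0, SE 0.15, edgeR adjusted p = 2.8e-13). Bcl2l11 (chr2:128126038-128162547), the gene of BIM, was the scarcest member with Trim27, at 55, 53, 53 and 38 counts in the Trim27 libraries against 4, 6, 0 and 2 counts in the GFP libraries. The log2 fold change was 3.22 (SE 0.44, edgeR adjusted p = 8.5e-08), and 2.23 after removal of the length trend. Like Pmaip1, Bcl2l11 passed the count filter only through the Trim27 libraries, so its p adds no support. A log2 fold change of 3.22 was ordinary for so scarce a gene, since 48.6% of the 2993 genes under 2 log2 CPM had a lower one.

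Bid (chr6:120891930-120916853), whose protein is cut by caspase 8 and carries a death receptor signal to mitochondria, was the most abundant BH3-only gene with Trim27. It had 168.2, 174.8, 174.9 and 184.1 CPM in the Trim27 libraries, against 89.5, 91.6, 80.9 and 88.9 CPM in the GFP libraries. Every Trim27 library lay above every GFP library, and the mean was 2.0 times as high (log2 fold change 1.0, SE 0.06, edgeR adjusted p = 5.9e-16). Among the 1903 genes at 6 to 8 log2 CPM, 94.9% had a lower log2 fold change. After removal of the length trend Bid was higher by 0.38 on the log2 scale (edgeR adjusted p = 1.15e-06). Relative to the median gene it was higher by 0.86 with TMM scaling and by 0.75 after that removal. Bid shares 628 exon bases with Bcl2l13 on the opposite strand, so some reads may belong to either. Bcl2l13 had 8826 counts in the Trim27 group and 4388 in the GFP group.

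Bad (chr19:6941861-6951899), whose protein is held inactive by growth factor signalling, went the other way. It had 66.2, 71.1, 77.1 and 68.2 CPM in the Trim27 libraries, against 198.0, 175.0, 188.9 and 186.0 CPM in the GFP libraries. The highest Trim27 library lay far below the lowest GFP library. The log2 fold change was -1.40 (SE 0.06, edgeR adjusted p = 9.4e-19), and 3.63% of genes of similar abundance had a lower one. Gpr137 overlaps Bad by 524 exon bases on the opposite strand, and it fell as well (log2 fold change -2.51, SE 0.11, edgeR adjusted p = 3.4e-18), with 586 counts in the Trim27 group and 1915 in the GFP group. Whether shared reads add to the fall of Bad was not tested.

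**Figure D3:**
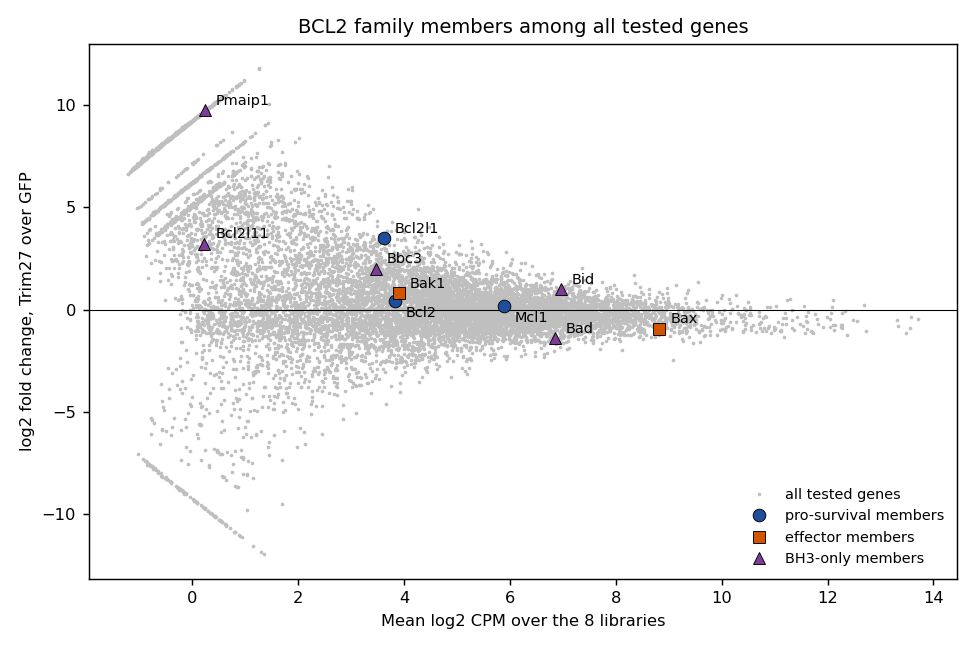
Log2 fold change (Trim27 over GFP) against mean log2 CPM for the 11040 tested genes in grey, with the members marked by role. Fold changes spread widely among scarce genes, where Pmaip1 and Bcl2l11 lie, and narrowly among abundant ones. Bcl2l1 and Bid sit near the upper edge for their abundance, Bad near the lower edge and Mcl1 in the middle. The fitted value of Pmaip1 depends on a prior count because its GFP counts are 0.

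Levels of different genes were compared per kilobase of exon (CPM per kb), using the union of all annotated exons, which can be longer than the transcripts present. In the Trim27 group the order was Bax (208.8 ± 11.8 CPM per kb), Bid (49.4 ± 1.84), Bad (27.6 ± 1.87), Mcl1 (18.6 ± 1.43), Bbc3 (10.3 ± 0.735), Bcl2l1 (9.06 ± 0.156), Bak1 (8.15 ± 0.363), Pmaip1 (3.18 ± 0.682), Bcl2 (1.78 ± 0.224) and Bcl2l11 (0.394 ± 0.0206; SD, n = 4). No neighbours in that order overlapped in their 4 libraries. In the GFP group it was Bax (396.3 ± 14.3 CPM per kb), Bad (73.1 ± 3.70), Bid (24.7 ± 1.32), Mcl1 (16.2 ± 1.83), Bak1 (4.70 ± 0.671), Bbc3 (2.59 ± 0.517), Bcl2 (1.34 ± 0.302), Bcl2l1 (0.80 ± 0.332), Bcl2l11 (0.0405 ± 0.0349) and Pmaip1 at 0. There Bcl2 overlapped Bcl2l1, and Bcl2l11 overlapped Pmaip1. Bid and Bad thus changed places, and Bcl2l1 stood above Bak1 and Bcl2 with Trim27 but below both with GFP.

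Ratios within a library do not depend on how libraries are scaled to each other, although a trend with length still enters them. They are given as descriptions, and the sums cover the 10 members only. The pro-survival gene Bcl2l2 is outside them. It was at 3.0 ± 0.961 CPM in the Trim27 group and 16.4 ± 1.72 CPM in the GFP group. The ratio of Bid to Bad was 1.83, 1.77, 1.63 and 1.95 in Trim27 replicates 1 to 4, against 0.326, 0.377, 0.309 and 0.345 in GFP replicates 1 to 4. Bid was the more abundant of the pair in each Trim27 library and the less abundant in each GFP library. Mcl1 made up 63.1% ± 2.07 of the summed pro-survival level in the Trim27 group and 88.3% ± 2.18 in the GFP group, while Bcl2l1 made up 30.9% ± 1.71 with Trim27 and 4.30% ± 1.6 with GFP (SD, n = 4 each). Mcl1 therefore remained the leading transcript of the pro-survival members in both groups.

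Among BH3-only transcripts, Bid accounted for 54.3% ± 1.33 of the summed level with Trim27 and 24.6% ± 1.62 with GFP, and Bad for 30.4% ± 1.51 with Trim27 and 72.8% ± 1.51 with GFP. Bax was the bulk of the effector transcripts in both, at 96.2% ± 0.125 with Trim27 and 98.8% ± 0.124 with GFP. The ratio of Bak1 to Bax was 0.0391 ± 0.00134 with Trim27 and 0.0118 ± 0.00127 with GFP. The summed level of the pro-survival members over that of the effectors was 0.136 ± 0.0132 in the Trim27 group and 0.0459 ± 0.00599 in the GFP group. The groups did not overlap, but the sum leaves out Bcl2l2, which was lower with Trim27. BH3-only over pro-survival levels gave 3.10 ± 0.219 with Trim27 and 5.52 ± 0.620 with GFP. Transcript ratios say nothing of protein amounts.

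**Figure D4:**
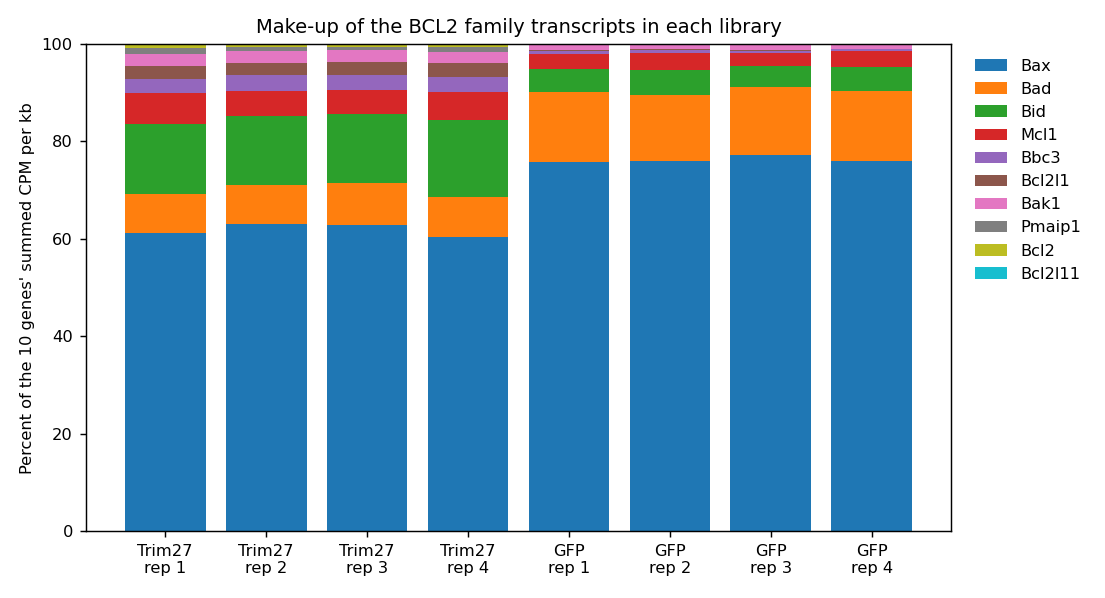
Share of each member in the 10 genes' summed CPM per kb, one stacked bar per library, Trim27 libraries on the left and GFP libraries on the right. Bax takes 60.4% to 63.1% of the sum in the Trim27 libraries and 75.8% to 77.3% in the GFP libraries, and the Bid segment is larger and the Bad segment smaller with Trim27.

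The promoters of the members were searched for short motifs of common transcription factors. Promoter windows of 300 bases (RefSeq, GRCm38.p6; most of each lies before the start site) were held for 9 members, 15 windows in all, some of which overlap. On either strand, the E-box CACGTG, a site of MYC and related factors, occurred in 2 windows, 1 of Bax and 1 of Bbc3, and in 7.15% of all 32851 windows. The ETS-type motif CCGGAAG occurred in 1 window each of Mcl1, Bcl2l1 and Bcl2l11 and in 8.86% of all windows. The GC box GGGCGG occurred in 10 of the 15 windows and in 35.7% of all. The STAT motif TTCNNNGAA, the CRE motif TGACGTCA and the AP-1 motif TGANTCA occurred in 0 of the 15, and in 8.30%, 1.79% and 7.81% of all windows. Bax, which fell, and Bbc3, which rose, are shown with the E-box in capitals. The motif is thus found beside members of either direction, and a match is a description of letters, not a site of binding. The Bax window is chr7:45466849-45467148 on the minus strand and the Bbc3 window chr7:16310181-16310480 on the plus strand.
Bax: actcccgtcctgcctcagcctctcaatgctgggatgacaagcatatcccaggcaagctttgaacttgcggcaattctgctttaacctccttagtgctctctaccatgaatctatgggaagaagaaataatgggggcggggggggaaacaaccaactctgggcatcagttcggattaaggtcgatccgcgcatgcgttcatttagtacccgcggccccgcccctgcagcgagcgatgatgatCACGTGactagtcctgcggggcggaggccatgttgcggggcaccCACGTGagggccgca
Bbc3: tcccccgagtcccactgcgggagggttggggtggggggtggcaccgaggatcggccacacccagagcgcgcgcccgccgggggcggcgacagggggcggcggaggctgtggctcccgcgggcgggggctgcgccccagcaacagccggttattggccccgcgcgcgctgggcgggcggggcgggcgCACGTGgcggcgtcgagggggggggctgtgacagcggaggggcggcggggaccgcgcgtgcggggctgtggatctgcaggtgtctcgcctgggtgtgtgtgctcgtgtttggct

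The profiles most like those of Mcl1 and Bax were sought among tested genes averaging 6 log2 CPM or more, as the smallest root mean square difference of centred log2 CPM over the 8 libraries. For Mcl1 these were Etf1, a translation termination factor (0.047 log2 units), Oxct1, an enzyme of ketone body use (0.059), and Tmed10, a cargo receptor of the early secretory pathway (0.062), against a median of 0.320 over 2557 genes. For Bax they were Map4k1, a kinase of blood cells (0.026), Snrpg, a spliceosome core protein (0.033), and Mrpl14, a mitochondrial ribosomal protein (0.035), against a median of 0.358 over 2556 genes. Their log2 fold changes were 0.12 to 0.18 for the first set and -0.95 to -0.89 for the second. They lie close to those of Mcl1 and Bax by the way the genes were chosen, because the profiles include the group difference.

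Other BCL2 family genes split evenly. Of 14 in the table, 8 could be tested, of which 3 rose and 3 fell. That is 75.0% called, against 85.5% of all tested genes (47.5% as higher, 38.0% as lower). The median log2 fold change of the list was -0.16. When scaled by library size alone, 3 rose and 1 fell, and the fit that removes the length trend seen in abundant genes also gave 1 fall. Removing the length trend of all genes gave 2 rises and 4 falls. Bcl2l2, which encodes the pro-survival protein BCL-W, had 3.37, 1.99, 2.49 and 4.16 CPM in the Trim27 libraries, against 14.4, 16.7, 18.5 and 15.9 CPM in the GFP libraries. It fell (log2 fold change -2.48, SE 0.19, edgeR adjusted p = 6.8e-13), and the value was -3.23 without the length trend. Bnip3l, which encodes the mitophagy receptor NIX of maturing red cells, was at 69.0 ± 7.73 CPM with Trim27 and 27.9 ± 4.08 CPM with GFP (log2 fold change 1.31, SE 0.10, edgeR adjusted p = 4e-13). Without the length trend it was 0.64. Its relative Bnip3 fell to 31.4 ± 6.72 CPM with Trim27, against 42.1 ± 5.57 CPM with GFP (log2 fold change -0.41, edgeR adjusted p = 0.0035). The groups of Bnip3 overlapped, and its edgeR adjusted p was 0.432 when scaled by library size alone. Bik, a BH3-only gene, rose on few counts, 115 with Trim27 and 14 with GFP. Bik passed the count filter only through the Trim27 libraries. Its log2 fold change was 2.23, and 3.02 without GFP replicate 1. Bcl2l13 rose by 0.21. The value for Bcl2l13 was -0.82 with the length trend removed. The tested pair that did not pass were Bok (log2 fold change -0.32) and Bmf (-0.01).

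In the list of caspase, apoptosome and inhibitor genes 19 were tested, among them genes of mitochondrial proteins such as Vdac1, Cycs and Endog. Of the 19, 8 rose, 6 fell and 5 missed the threshold, with a median log2 fold change of 0.04. That is 73.7% called, below the 85.5% of all tested genes (47.5% as higher, 38.0% as lower). The balance depended on scaling, with 4 rises and 13 falls after removal of the length trend, and 12 rises and 5 falls on library size alone. Cycs, which encodes cytochrome c, fell to 103.1 ± 13.0 CPM with Trim27, against 177.1 ± 5.03 CPM with GFP, and Endog, a mitochondrial nuclease, fell to 4.94 ± 0.582 CPM with Trim27, against 18 ± 1.8 CPM with GFP. Vdac1, a channel of the outer mitochondrial membrane, rose to 359.4 ± 20.6 CPM with Trim27, against 216.4 ± 8.71 CPM with GFP (SD, n = 4 each). The edgeR adjusted p was 1.6e-11 for Cycs, 2.6e-12 for Endog and 8.1e-14 for Vdac1. Cycs had a log2 fold change of -0.78, and -1.38 without the length trend. That of Endog was -1.87, -1.78 without the length trend and -1.24 without the trend fitted on abundant genes. For Vdac1 it was 0.73, and 0.23 without the length trend. Apaf1, the scaffold of the apoptosome, did not pass (log2 fold change -0.07, SE 0.17).

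Death receptor pathway genes were mostly higher with TMM scaling. Of 10 tested, 7 rose, 2 fell and 1 missed the threshold, with a median log2 fold change of 0.62. That is 90.0% called, close to the 85.5% of all tested genes (47.5% as higher, 38.0% as lower). Here too the balance depended on scaling, with 3 rises and 4 falls after removal of the length trend, and 8 rises and 0 falls on library size alone. Casp8, which cuts BID, had 37.9, 37.1, 37.4 and 31.8 CPM in the Trim27 libraries, against 14.4, 14.7, 12.3 and 11.2 CPM in the GFP libraries. No libraries overlapped between the groups (log2 fold change 1.46, SE 0.11, edgeR adjusted p = 3.8e-13). Ripk3, a kinase of necroptosis, was at 145.5 ± 9.89 CPM with Trim27 and 92.1 ± 7.95 CPM with GFP, and the TNF receptor gene Tnfrsf1a at 49.1 ± 2.42 CPM with Trim27 and 32.8 ± 3.19 CPM with GFP. Tnfrsf1a and Tnfrsf10b lost their calls once the length trend was removed (log2 fold changes 0.09 and 0.42). The TRAIL receptor gene Tnfrsf10b rose by 1.28, and the adaptor gene Tradd fell by 0.38. For Tradd the log2 fold change was -0.08 with library size alone (edgeR adjusted p = 0.359). Fas had 0 counts in the Trim27 group and 4 in the GFP group, and its ligand gene Fasl had 0 in every library.

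**Figure D5:**
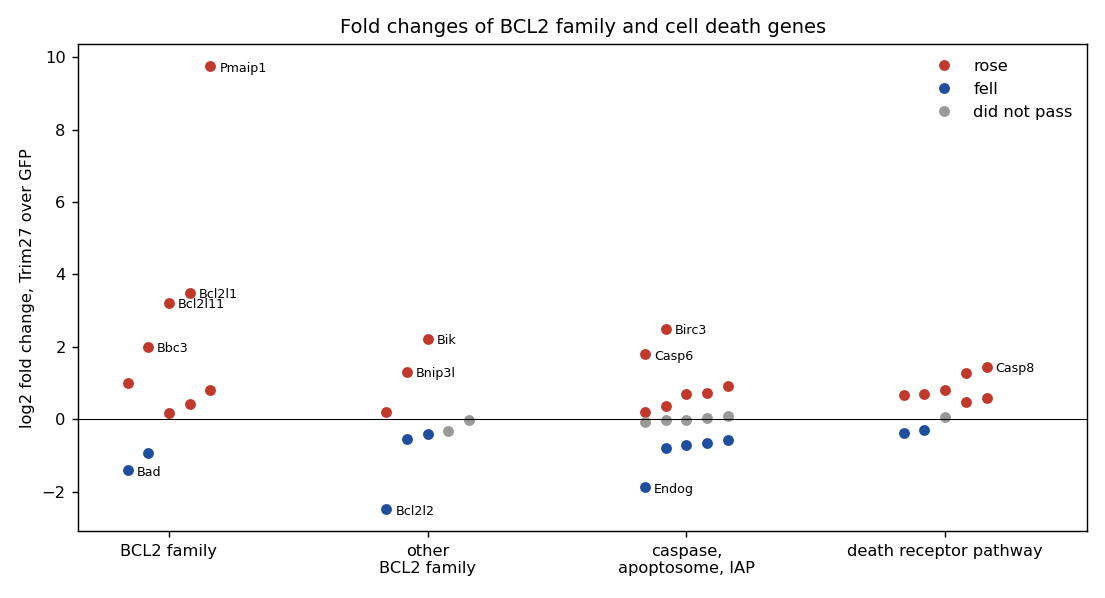
Log2 fold changes (Trim27 over GFP) of the 10 members and of genes of the 3 other lists, with genes past 1.3 in size named. Red points rose, blue points fell and grey points did not pass the threshold. Each list holds genes in both directions, and Pmaip1, with 0 counts in the GFP libraries, is the highest point drawn, at a fitted value that depends on a prior count.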

How the data were processed

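RNA was measured by sequencing in 8 libraries. The authors deposited 1 table of raw counts per gene symbol. Tools listed in the submitters' processing notes are bcl2fastq, HISAT2 and featureCounts, with the build NCBIM37. Tool versions, the annotation, the strand setting and the handling of multiply mapped reads are not given there. The 1 row without a gene name held 0 counts and was left out. Even numbers made up 64.7% to 67.0% of the counts between 1 and 10 in Trim27 libraries and 68.4% to 72.0% in GFP libraries. Floors cover counting error only. A log2 fold change or CPM of a gene sharing exons with another may include reads of either.

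The analysis used edgeR 4.0.16 under R 4.3.3. The default filterByExpr rule (minimum count 10, minimum total 15) kept 11040 genes. Libraries were scaled by TMM, and groups were compared 2-sided by the robust quasi-likelihood test with no covariate and Benjamini-Hochberg adjustment over all genes tested. SEs came from the log2 fold change and its F statistic. The fit was tested on simulated data in which few genes changed, evenly in both directions. In the real data 85.5% of genes passed, so the simulation does not test the scaling in that setting. Lengths are exon unions of GENCODE M21 on GRCm38, which cover 99.4% of tested genes, and coordinates and overlaps are of that build, not of the authors'. Bcl2a1a and Bcl2a1d were not found in the table by symbol.

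The members, the 3 pathway lists and the marker lists were chosen with earlier results of these data known. The text names all members, Trim27, the up to 5 called genes of lowest p in each pathway list, and 3 like profiles each for Mcl1 and Bax. Bok, Bmf, Apaf1, Fas and Fasl fell outside this rule and were named after their values were seen. Alternatives were other scaling factors (DESeq2 1.42.0), length offsets, other filters, the DESeq2 Wald test, limma-voom (limma 3.58.1), a replicate block, each library left out, libraries thinned to 9257889 counts, an adjusted p under 0.10, a fold above 1.5 by glmTreat and, chosen after seeing the data, halved counts. Of the genes this rule selects in the pathway lists, 2 are not reported here by name or in the plot, though the counts of calls include them.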

Additional observations from a re-analysis of the deposited data

Results flagged for a closer look

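Within-group outliers were sought in 114 groups of 4 values (Dixon's ratio above its 95% critical value), where chance alone flags about 5%, and 5 were found. Bcl2 was at 13.2 CPM in Trim27 replicate 4, against 17.1 to 17.7 CPM in the other Trim27 libraries. Casp8 was also low there, at 31.8 CPM against 37.1 to 37.9 CPM. That library has the smallest total of its group, 10551137 counts. The Bax share of the members' summed level was 77.3% in GFP replicate 3, against 75.8% to 76.0% in the other GFP libraries. The ratio of Bak1 to Bax was 0.0371 in Trim27 replicate 3, against 0.0395 to 0.0400 in the other Trim27 libraries, and the Bax share of effector transcripts was 96.4% there, against 96.2% in the others, which is the same difference seen from the other side.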

How the results depend on the processing

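Of 22 alternatives, Bcl2l1, Bid, Bad, Bak1, Bax and Bbc3 kept their direction and call in all, and Bcl2l11 and Pmaip1 in the 21 that could test them (the filter of 10 CPM in 4 libraries left both out). Removing the length trend reversed Mcl1 (-0.41), Bcl2 (-0.61), Trim27 (-0.16) and Bcl2l13 (-0.82), and gave 4 members that fell. Over all 11040 genes the median was then -0.37, against 0.14 with TMM, 0.44 with library size alone and 0.36 when the trend fitted on abundant genes was taken out. Calls divided into 5249 rises and 4193 falls with TMM, 3593 and 5855 with the length trend removed, 6274 and 3108 with library size alone, and 5951 and 3308 with the abundant-gene trend taken out. The cause was not tested.

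With the length trend removed, 4 caspase, apoptosome and inhibitor genes rose and 13 fell, and 3 death receptor pathway genes rose and 4 fell. With library size alone 1 other BCL2 family gene and 0 death receptor pathway genes fell, and with the abundant-gene trend taken out 1 and 1 fell. The filter of 10 CPM gave 3453 rises among all genes and 3 among the death receptor pathway genes, since fewer genes were tested. Requiring a fold above 1.5 left 2452 falls among all genes, 1 fall among other BCL2 family genes, 4 rises and 3 falls among caspase, apoptosome and inhibitor genes, and 2 rises and 0 falls among death receptor pathway genes, and dropped Mcl1 and Bcl2. With 1 library left out, 7 to 8 members rose and 2 fell. Thinned to the smallest total, Mcl1 lost its call (edgeR adjusted p = 0.0573).

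With the replicate number as a block, 5133 genes rose and 4027 fell, and 8 members rose and 2 fell. The labels do not state whether the numbers pair the libraries. The correlation of deviations between same-numbered libraries was -0.0345 to 0.0207, and between differently numbered ones -0.0382 to 0.0764. No shared effect was seen, but such values cannot show that same-numbered libraries were not made together. Depth limits Bcl2l11, at 0 to 6 counts in the GFP libraries, and Pmaip1, at 0.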
